A study of Mus musculus with 6 samples.

Results

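Rec114 and AI662270 are 2 of the 27179 genes counted in circulating red cells of mice with or without 1 mutant copy of Nxf1. Both had lower counts in the mutants, and they were chosen by that fall: each was called lower by edgeR's test (adjusted p under 0.05) under all 5 ways of scaling the libraries. Their own difference between genotypes is therefore given below as a description, with no test. The study took erythrocytes from individual BalB/c males, 3 of genotype Nxf1+/C587R and 3 wild-type littermates of genotype Nxf1+/+. The mutant allele, C587R, is a missense change in 1 of the gene's copies. No tissue-limited driver and no other allele or treatment is named for either group. Each of 3 batches held 1 library of each genotype. Nxf1 itself (Entrez gene 53319) had 9, 7 and 11 counts in the mutant libraries and 15, 10 and 20 in the wild-type libraries. It was not called as different (log2 fold change −0.21, SE 0.38, edgeR adjusted p = 0.850, n = 3 each). Nor was it called in any of 15 alternative fits, where the log2 fold change ran from −0.69 to 0.011. The 2 alleles are not separated in these counts.

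NXF1 carries most messenger RNAs out of the nucleus. Mature mouse erythrocytes have no nucleus, and the RNA in a red cell preparation is largely what the youngest cells, the reticulocytes, keep from the erythroblast stage. REC114 is known from meiosis, where it works with MEI4 and IHO1 to let SPO11 make the DNA breaks that start recombination. AI662270 is annotated as a long non-coding RNA that lies among the Schlafen genes, a family with many interferon-induced members.

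The 2 genes lie on different chromosomes. RefSeq (GRCm38.p6) places Rec114 (Entrez gene 73673, protein coding) on chromosome 9, 58652856 to 58822706, and AI662270 (Entrez gene 100043636) on chromosome 11, 83223576 to 83226584. The length behind the Rec114 counts, 883 bases, equals that of the GENCODE M21 coding transcript of 6 exons on the minus strand, which starts at 58741559. The length behind the AI662270 counts was 1408 bases, against 1428 bases for the longest spliced GENCODE transcript, which has 4 exons on the plus strand. Neither gene is free of partners. Exons of Nptn (neuroplastin, a cell adhesion protein) on the opposite strand cover 338 of the 883 Rec114 bases in GENCODE, while the RefSeq spans of the pair overlap by 24 bases. Exons of Gm11427, a transcribed pseudogene on the same strand that is not in the count files, cover 491 of the 1428 AI662270 bases (34.4%). Reads from these stretches cannot be told apart by gene where the counting ignored strand or saw the exon as AI662270 alone.

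The RefSeq window around the start of Rec114 (GRCm38.p6, chr9:58741510-58741809, minus strand, 250 bases before the start and 50 after) is shown because the start of a transcript this abundant in red cells is where an erythroid motif would be looked for. It covers 1 annotated start only. GENCODE M21 has another Rec114 transcript that starts at 58743964, and the RefSeq span reaches 58822706. Counts per gene do not show which start the red cell transcript used. The capitals mark a CCAAT box, read on the opposite strand as ATTGG.

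Rec114 start window: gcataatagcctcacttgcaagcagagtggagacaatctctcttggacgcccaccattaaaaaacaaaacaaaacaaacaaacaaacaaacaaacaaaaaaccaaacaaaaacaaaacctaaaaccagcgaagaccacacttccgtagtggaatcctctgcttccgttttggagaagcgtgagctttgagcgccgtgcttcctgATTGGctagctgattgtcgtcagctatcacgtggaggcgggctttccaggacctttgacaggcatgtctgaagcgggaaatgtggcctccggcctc

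The window held 47.7% G and C and 12 CpG pairs, against medians of 52.7% and 7 over 32817 windows. On both strands it had no exact match to the GATA letters AGATAA, which 11.2% of all windows hold, or to the KLF1 letters CCACACCC (3.56%). It had none to the E-box form CAGCTG (16.3%), the interferon-stimulated element core (3.43%) or the TATA letters TATAAA (13.6%) either. CCAAT, searched after the sequence was seen, matched once, and 37.4% of all windows hold it. Other forms of the GATA and E-box motifs were not searched. The window does hold TGATAG (printed as ctatca, its opposite strand) and the E-box form CACGTG. The share of all windows with these forms was not counted. All of these are exact letter matches in 1 window and do not bear on whether a factor binds.

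Exon 3 of AI662270 (GRCm38, chr11:83224452-83224631, plus strand, GENCODE M21) is shown because 178 of its 180 bases, in capitals, are also exon of Gm11427.

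AI662270 exon 3: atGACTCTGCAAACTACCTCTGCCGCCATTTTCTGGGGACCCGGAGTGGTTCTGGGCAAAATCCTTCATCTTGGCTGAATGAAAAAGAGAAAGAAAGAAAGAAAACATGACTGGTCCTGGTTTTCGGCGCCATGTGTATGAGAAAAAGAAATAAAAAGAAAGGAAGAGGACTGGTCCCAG

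Rec114 had 963, 1175 and 1009 counts in wild-type libraries 1, 2 and 3, and 319, 346 and 361 in mutant libraries 1, 2 and 3. Each wild-type library held more than any mutant library, with no overlap. With each count scaled to the library's total (CPM of all counts), the level was 68.6 ± 9.76 in wild type and 22.8 ± 1.82 in the mutants (SD, n = 3 each), so the mutant mean was 33.2% of the wild-type mean. The highest single value, 79.9 CPM in wild-type library 2, had a 95% Wilson interval of 75.4 to 84.6, and the lowest, 21.03 CPM in mutant library 1, one of 18.8 to 23.5. These intervals cover counting error only, and the spread between the wild-type animals went beyond it.

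AI662270 had 419, 579 and 571 counts in wild-type libraries 1, 2 and 3 and 128, 136 and 185 in mutant libraries 1, 2 and 3. Its groups did not overlap either. In CPM of all counts it stood at 27.0, 39.4 and 36.2 in the wild-type libraries (mean 34.2 ± 6.39, SD, n = 3) and at 8.44, 8.92 and 12.6 in the mutant libraries (SD 2.30, n = 3), and the mutant mean was 29.2% of the wild-type mean. In both genes wild-type library 2 was the highest of the 6.

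TMM scaling, which sets library sizes so that most genes show little change, gave smaller differences. Rec114 was then at 58.1 ± 11.8 and 27.2 ± 3.38 CPM, and its log2 fold change in edgeR was −1.10 (SE 0.18). AI662270 was at 28.9 ± 6.67 and 11.7 ± 0.254 CPM, with a log2 fold change of −1.30 (SE 0.19). The mutant SD of AI662270 was 2.30 CPM of all counts and 0.254 CPM after TMM scaling, so the scaling factors set how alike these 3 libraries look. Every wild-type library was above every mutant library, for both genes and on both scales. That pattern was shared by 11.1% of the 2823 genes tested with TMM-scaled CPM and by 31.5% with CPM of all counts.

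**Figure D1:**
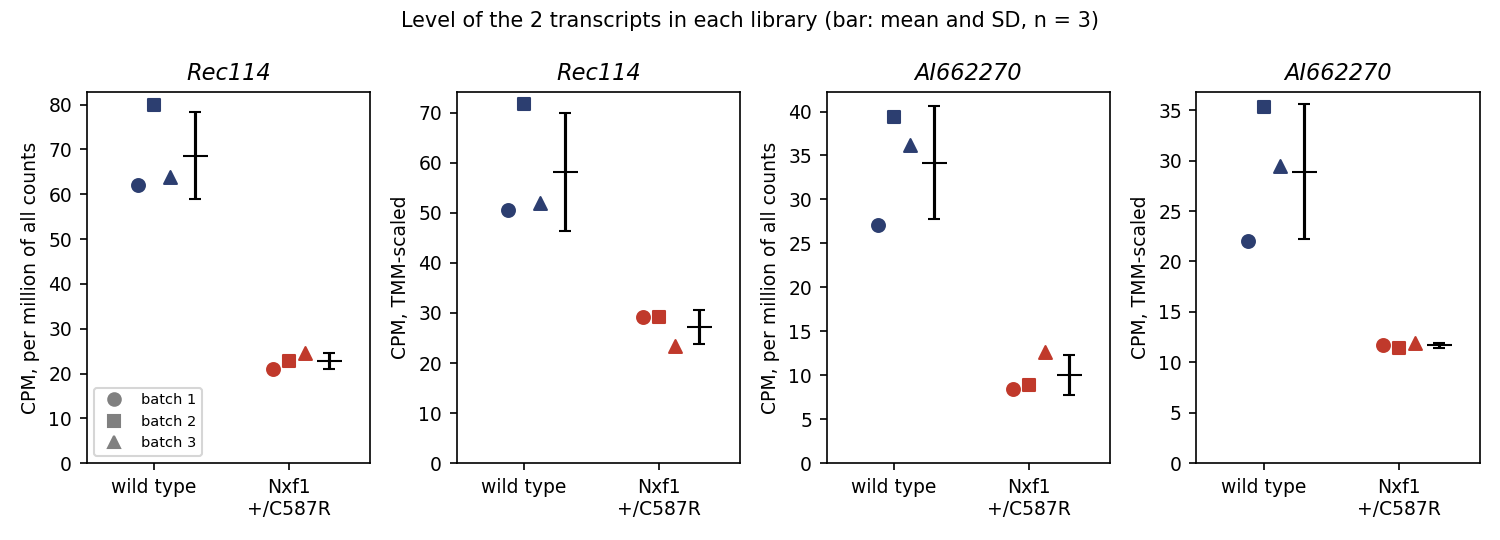
Level of Rec114 and AI662270 in each library, as CPM of all counts and as TMM-scaled CPM (vertical axes from 0). Points are libraries, marker shapes are batches, and black bars are the mean and SD of 3 libraries; the mutant points of Rec114 lie between 21.03 and 24.7 CPM of all counts and the wild-type points between 62.1 and 79.9.

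Within each batch the mutant library was lower. The log2 difference of Rec114 was −0.79, −1.30 and −1.16 in batches 1, 2 and 3 with TMM scaling, and −1.56, −1.82 and −1.37 in CPM of all counts. For AI662270 it was −0.91, −1.63 and −1.30 with TMM scaling and −1.68, −2.14 and −1.52 in CPM of all counts. Batch 2 held the widest gap for both genes on both scales.

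Ratios of counts within a library do not depend on scaling. There were 2.49, 2.54 and 1.95 Rec114 counts per AI662270 count in mutant libraries 1, 2 and 3 and 2.30, 2.03 and 1.77 in the wild-type libraries, and the groups overlapped. Set against Alas2, which starts heme synthesis in red cells, the Rec114 ratio in the mutants was 0.356 of that in wild type and the AI662270 ratio 0.313. Set against Slc4a1, the anion exchanger band 3, these values were 0.526 and 0.460. Set against Redrum, a long non-coding RNA known from erythroid cells, they were 0.403 and 0.353. The groups did not overlap in any of these 6 ratios. They did overlap for Rec114 set against Lockd, a long non-coding RNA of erythroid cells (0.776), and against Nptn, its overlapping neighbour (0.612). Both members were chosen by their fall, and Alas2 and Redrum were named after their values were seen. The share of all genes without overlap in such ratios was not counted. In CPM of all counts, 31.5% of the genes tested had every wild-type library above every mutant library.

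Per length, both transcripts ranked among the more abundant ones. CPM of all counts per kb of the counted gene length (RPKM) put Rec114 at 77.7 ± 11.1 in wild type, at place 72, 66 and 72 among the 12704, 10086 and 11095 genes with a count in wild-type libraries 1, 2 and 3. In mutant libraries 1, 2 and 3 it stood at places 121, 124 and 126, with 25.8 ± 2.06 RPKM. AI662270 was at 24.3 ± 4.54 RPKM and places 147, 127 and 133 in wild type, and at 7.10 ± 1.63 RPKM and places 262, 271 and 244 in the mutants. The mutant places of Rec114 lay close to the wild-type places of AI662270. By count alone, which favours long transcripts, Rec114 was at places 95, 86 and 96 in the wild-type libraries and 148, 153 and 163 in the mutant ones.

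**Figure D2:**
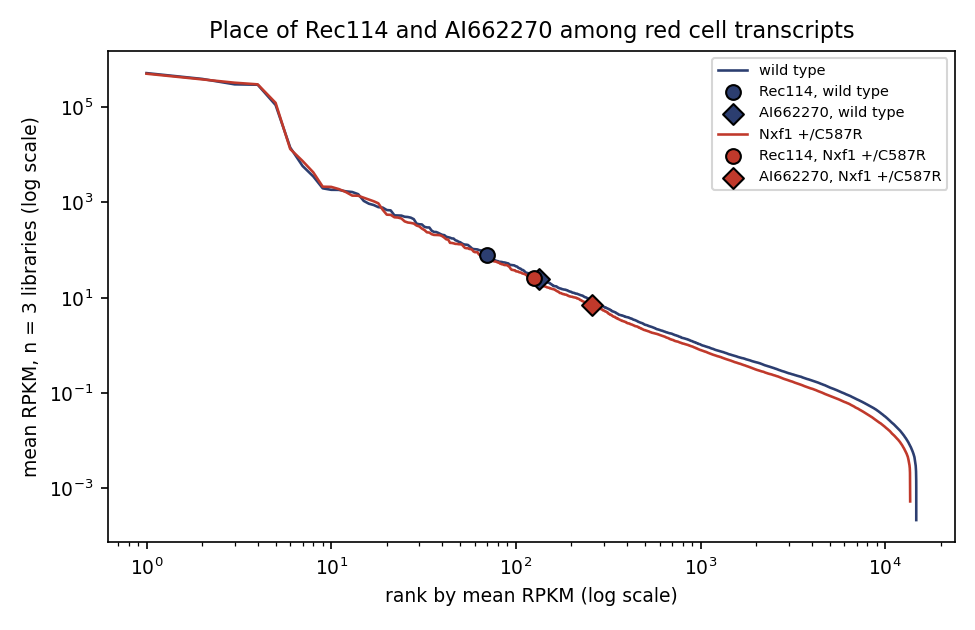
Mean RPKM of every gene with a count, ordered from high to low in each genotype (both axes logarithmic), with Rec114 as circles and AI662270 as diamonds. By mean RPKM Rec114 stood at place 70 in wild type and 126 in the mutants, and AI662270 at places 134 and 258.

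The genes next to Rec114 in the wild-type order give its level a scale. Directly above it by mean RPKM were Hagh, an enzyme that clears methylglyoxal adducts (79.8 ± 8.41 RPKM), and the polyamine oxidase Smox (82.4 ± 2.07). Directly below were Cd24a, a glycoprotein of young red cells (77.0 ± 13.8), and the theta globin Hbq1a (71.3 ± 4.05). These 4 neighbours in the order do not differ from Rec114 beyond the spread of its wild-type libraries. In the mutants Hagh stood at place 79, Smox at 60, Cd24a at 100 and Hbq1a at 77, all above Rec114 at 126. AI662270 lay between Atpif1, an inhibitor of the mitochondrial ATP synthase (25.4 ± 8.01 RPKM), and Ypel3 (24.1 ± 0.649), with Slc4a1 at 27.0 ± 5.09, and it differed from none of them beyond these spreads. In the mutants these 3 stood at places 201, 167 and 144, above AI662270 at 258.

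Of the 2823 genes tested, 30 (1.06%) were called lower with TMM scaling, and 19 were called lower under all 5 scalings. The number called lower was 6 of 16373 genes tested with DESeq2 and 20 of 2823 with limma-voom. With 1 library left out it ran from 8 of 3263 (without mutant library 3) to 77 of 3025 (without wild-type library 1). Just outside the 19 was 1500011B03Rik, with an edgeR adjusted p of 0.0446 with TMM and 0.0598 with RLE factors. By the size of the TMM fold change AI662270 was 16th and Rec114 21st among the 30. Only 4 of the 19 had a wild-type mean of at least 5 TMM-scaled CPM, a level chosen after the values were seen. Besides these 2 they were Prnp, the prion protein (6.64 CPM in wild type and 2.95 in the mutants), and Raly, an RNA-binding protein (5.75 and 2.94). Among the 300 tested genes with the highest wild-type RPKM, globins left out, AI662270 had the third lowest log2 fold change and Rec114 the fourth, against a median of 0.14. Below them were Mir451a, counted at the precursor of the erythroid miRNA miR-451a (51 mutant and 193 wild-type counts, log2 −1.40), and Tfrc, the transferrin receptor of immature red cells. Tfrc had 100, 60 and 246 counts in mutant libraries 1, 2 and 3 and 145, 577 and 706 in wild type, and with a log2 fold change of −1.38 it was not called (edgeR adjusted p = 0.481, n = 3 each).

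The size of the fall followed the scaling. With total counts the median over all genes tested went from −0.06 to −0.53 on the log2 scale, and Rec114 from −1.10 to −1.59. With library sizes taken from 11 erythroid marker genes other than globins, the median was −0.45 and Rec114 was at −1.50. A change of library sizes shifts the genes and their median nearly alike, so the distance from the median is kept by construction and is given only as a level. Relative to the median of all genes Rec114 was at −1.04 with TMM, −1.06 with total counts and −1.05 with erythroid library sizes. AI662270 relative to the same medians was at −1.25, −1.24 and −1.24. With 1 library left out at a time, the log2 fold change of Rec114 ran from −1.19 to −0.90 and that of AI662270 from −1.47 to −1.12.

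**Figure D3:**
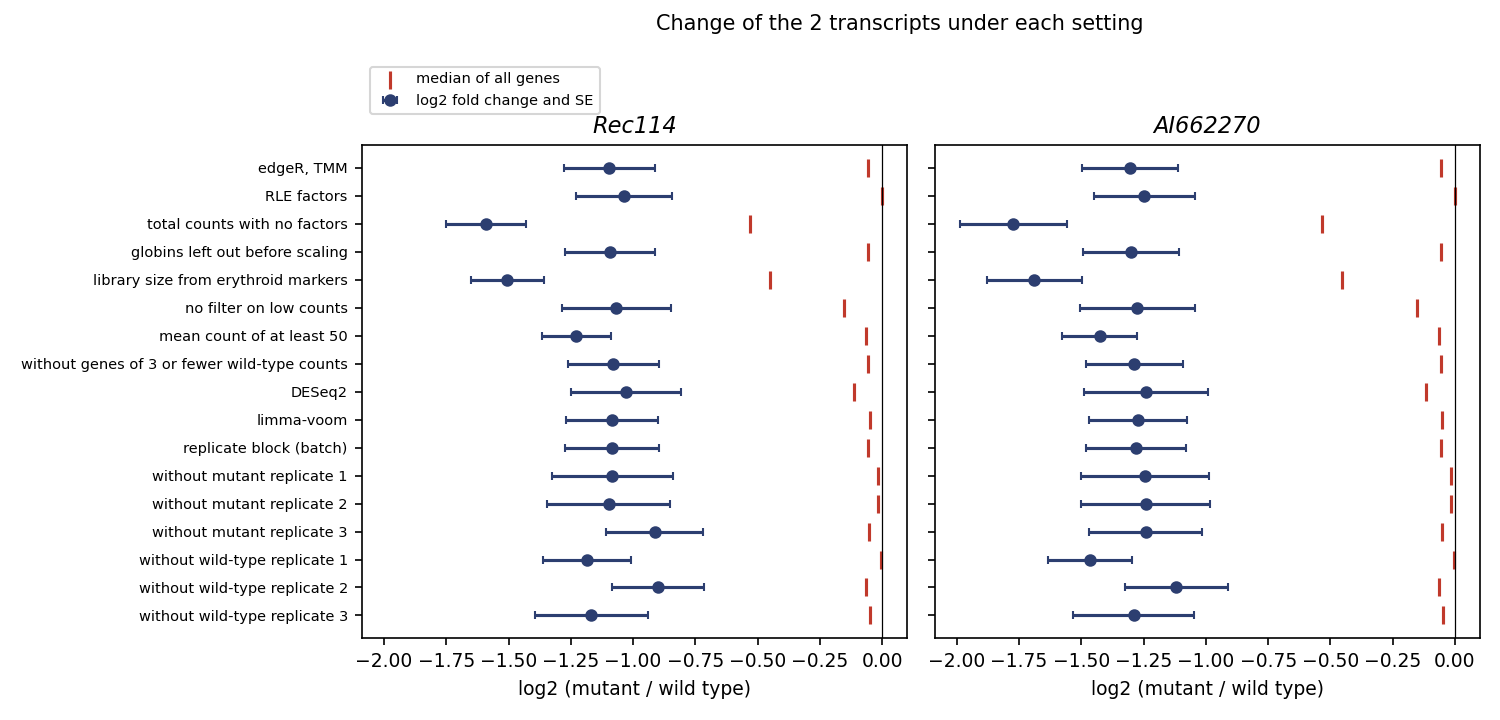
Log2 fold change of Rec114 and AI662270 (mutant over wild type, points with SE) under each scaling, filter, tool and left-out library, with the median of all genes under the same setting as a red tick. Both transcripts stay below 0 in every setting, between −1.59 and −0.90 for Rec114 and between −1.77 and −1.12 for AI662270.

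The genes that act with Rec114 in meiosis had counts at or near 0. Of 10 genes for making meiotic breaks, 9 are in the count files, all but Ankrd31, which was therefore not measured. Of these 9, 5 had no count in any library: Mei4 and Iho1, which encode partners of REC114, Mei1, Hormad1 and Gm960, which encodes the partner subunit of SPO11. A count of 0 allows up to 3 counts per library, which is 0.190 to 0.205 CPM. Spo11 had 1 count over all 6 libraries, Hormad2 1, Zcwpw1, a histone reader of the marks at recombination sites, 2, and Prdm9, which sets those marks, 5. None of the 9 passed the filter on low counts. With no filter, and with DESeq2, 4 of them were tested and 0 called.

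The list for later steps of meiosis gave the same picture at slightly higher counts. It had 31 members in the files, of which 14 had no count, among them the strand exchange recombinase Dmc1 and the meiosis gatekeeper Stra8. The members with most counts were Sycp2, a part of the synaptonemal complex (22 mutant and 34 wild-type counts), Stag3, a meiotic cohesin (32 and 12, of which 21 in mutant library 2), and Msh5, a crossover factor (8 and 15). Only Sycp2 passed the filter, and it was not called (log2 −0.13, edgeR adjusted p = 0.930, n = 3 each); it did not pass at an unadjusted p under 0.05 or with DESeq2 either. Markers of male germ cells summed to 1 count in each mutant library and to 1, 3 and 2 in the wild-type libraries, with 5 of 9 at 0 throughout. Rec114 alone had 3147 wild-type counts, against 111 for both meiotic lists together.

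Few counts came from the genes around Rec114. Of 28 annotated genes within 500 kb, 18 are in the files and 14 had a count, with 109 counts in the mutant libraries together and 192 in the others. Nptn, whose end overlaps that of Rec114, had 21, 13 and 22 counts in mutant libraries 1, 2 and 3 and 33, 28 and 42 in wild type. Per length Rec114 exceeded Nptn 74.6-fold in wild type (from 56.5 to 98.7 in single libraries) and 45.6-fold in the mutants (35.7 to 62.6). Hcn4, a pacemaker channel whose gene begins 243 bases beyond the RefSeq span of Rec114, had no count. Neo1, a netrin receptor farther along, had 1 mutant and 10 wild-type counts. Nptn and Pml, the core of PML nuclear bodies, were tested, and neither was called (log2 −0.35 and 0.0094, edgeR adjusted p = 0.627 and 0.993, n = 3 each). Neither passed at an unadjusted p under 0.05 or with DESeq2 or limma-voom, while 7.05% of all genes tested were called in either direction.

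More counts came from the genes around AI662270. Of 62 genes within 500 kb, 38 are in the files and 9 were tested, whose log2 fold changes ran from −0.57 to 0.75 (median 0.14), against −0.06 over all genes. None was called with TMM scaling, where 7.05% of all genes tested were called in either direction. Of the 9, Slfn2 and Slfn4 passed at an unadjusted p under 0.05 (higher in the mutants). In either direction 523 of all 2823 genes tested did. The log2 fold change of Slfn4 was 0.46 with TMM and 0.023 with total counts. DESeq2 and limma-voom called 0. Slfn14, the nearest tested gene after AI662270 and a Schlafen member known from platelets and reticulocytes, had 18, 27 and 24 counts in mutant libraries 1, 2 and 3 and 36, 55 and 54 in wild type. Its log2 fold change was −0.55 (SE 0.30, edgeR adjusted p = 0.339, n = 3 each). Counted per Slfn14 count, AI662270 was at 7.11, 5.04 and 7.71 in the mutant libraries and 11.6, 10.5 and 10.6 in wild type. The groups did not overlap in this ratio. AI662270 was chosen by its fall, and the share of all genes without overlap in such a ratio was not counted. On the other side Slfn3 had 2 mutant and 4 wild-type counts, and Slfn4 had 162, 136 and 329 mutant and 255, 172 and 209 wild-type counts.

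All 9 Schlafen genes had a count and 5 were tested, with 0 called, where 7.05% of all genes tested were called in either direction. Slfn2, whose product keeps T cells quiescent, had the largest value (log2 0.75, SE 0.24, edgeR adjusted p = 0.0711, n = 3 each). Its 134 counts in mutant library 3 stood above the other 5 libraries, at 55 to 77. It was called with RLE factors (adjusted p = 0.0483) and without mutant library 2 (adjusted p = 0.0296), and its log2 fold change was 0.32 with total counts. With TMM scaling 4 of the 5 tested genes had a positive log2 fold change, where 1273 of all 2823 genes tested did. With total counts it was 2 of the 5, where 402 of all 2823 did.

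**Figure D4:**
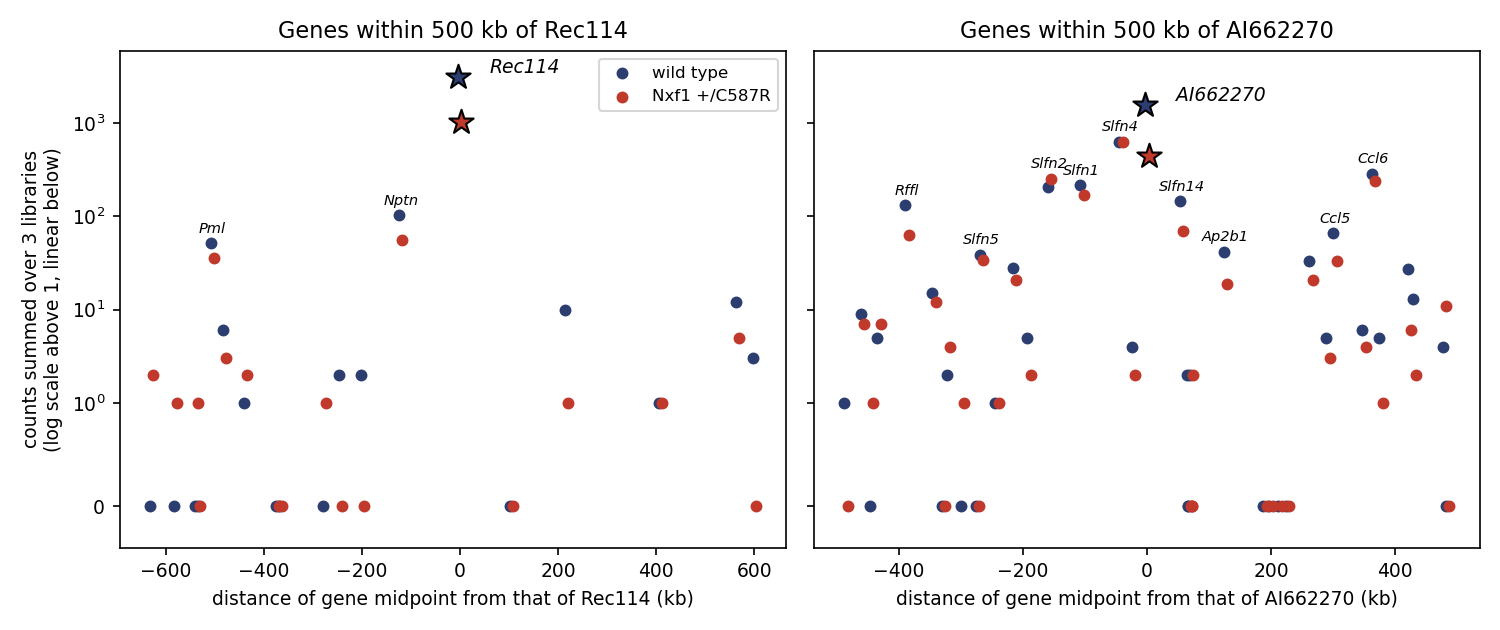
Counts summed over 3 libraries for each counted gene within 500 kb of Rec114 (left) and of AI662270 (right), against the distance between gene midpoints in kb (vertical axis logarithmic above 1; points of the genotypes are set slightly apart). Stars are Rec114, with 3147 wild-type and 1026 mutant counts, and AI662270, with 1569 and 449; the neighbours with most counts are Nptn on the left and Slfn4 on the right.

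As a long non-coding RNA, AI662270 was second by mean RPKM in wild type among 2077 such genes, of which 647 had a count, and 4th in the mutants. Oip5os1 led in both genotypes, at 37.3 RPKM in wild type and 27.2 in the mutants. Lockd, transcribed downstream of Cdkn1b in erythroid cells, followed AI662270 in wild type at 23.4 RPKM and passed it in the mutants at 10.1 RPKM, against 7.10 for AI662270. Redrum moved from place 6 to place 3, with 8.66 and 7.19 RPKM. Of the 27 other long non-coding RNAs tested, 3 were called lower and 0 higher, and their median log2 fold change was −0.12. Over all genes tested 1.06% were called lower and 5.99% higher. In the fit with batch as a term 5 were lower, where 2.13% of all genes were lower and 6.87% higher. With total counts 9 were lower, where 8.68% of all genes were lower and 4.07% higher.

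The called ones had far fewer counts than AI662270. A930006K02Rik had 5, 9 and 9 counts in mutant libraries 1, 2 and 3 and 30, 33 and 54 in wild type (log2 −1.81, SE 0.35, edgeR adjusted p = 0.00182, n = 3 each), and it passed in each of the 15 other settings that tested it. AW011738 had a log2 fold change of −1.30, on 27 against 96 counts, and 1500011B03Rik one of −1.11, on 30 against 93 (edgeR adjusted p = 0.0126 and 0.0446). The call of AW011738 was lost with DESeq2 (adjusted p = 0.358) and when mutant library 1, mutant library 2 or wild-type library 3 was left out (0.0501 to 0.0826). That of 1500011B03Rik held in 4 of 15 settings (adjusted p 0.0128 to 0.697), and it was lost with any 1 library left out. Lockd (log2 −0.75, edgeR adjusted p = 0.0588) and the nuclear RNA Neat1 (−0.89, adjusted p = 0.0757) missed the threshold and passed with batch as a term. Oip5os1 (0.041) and Redrum (0.24) were not called under any setting.

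**Figure D5:**
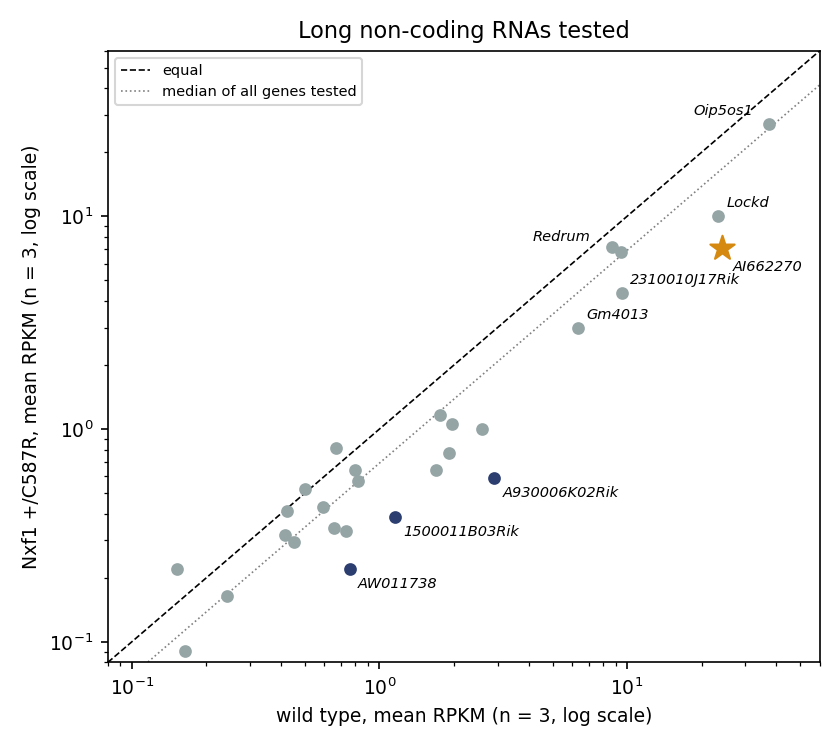
Mean RPKM of the 28 long non-coding RNAs tested, wild type (horizontal) against mutant (vertical), both axes logarithmic, with dashes for equal levels and dots for the median of all genes. The star is AI662270 (24.3 and 7.10 RPKM) and dark points are the 3 other genes called lower; Oip5os1 lies near the dotted line.

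Over the 6 libraries 15 genes had a Pearson r above 0.95 with Rec114 and 21 with AI662270 in TMM-scaled log2 CPM, and 81 and 151 with total counts. In TMM-scaled log2 CPM, Rec114 and AI662270 had a Pearson r of 0.964 with each other, which placed AI662270 seventh for Rec114. The genes most like Rec114 were Atp6v1f, a subunit of the vacuolar proton pump (0.980), Wipi2, an autophagy protein (0.976), Glul, glutamine synthetase (0.974), and the histone genes H2bc4 (0.971) and H2aj (0.964). The genes most like AI662270 were the tubulin gene Tuba4a (0.995), Lbh (0.994), the lipid transfer protein gene Osbpl8 (0.971), Cd24a (0.965) and Nudt4 (0.964). Cd24a had 842, 880 and 1212 counts in mutant libraries 1, 2 and 3 and 1719, 2241 and 2467 in wild type. After the genotype means were removed, r was 0.652 between the pair. Between AI662270 and Tuba4a, Lbh, Osbpl8, Cd24a and Nudt4 it was then 0.946, 0.960, 0.945, 0.973 and 0.605. These are descriptions over 6 libraries that share genotype, depth and scaling factors, and only 2 of the 5 genes for Rec114 and 1 of the 5 for AI662270 were named again with total counts.

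The 6 libraries held 14636739 to 15790336 counts, of which 1627997 to 1877571 were not globin. The cells had been passed over Ficoll and checked for purity by flow cytometry, per the labels' protocols. All 14 matched erythroid markers had counts and were tested, and 2 were called higher, where 5.99% of all genes tested were called higher and 1.06% lower. Their log2 fold changes ran from −1.07 to 0.80, with 5 negative and 9 positive, against 1550 negative and 1273 positive over all genes tested. Of the 14, 7 passed at an unadjusted p under 0.05, as did 523 of all 2823 genes tested. Some of the marker lists for other cells differed between the genotypes. The 7 markers of immature reticulocytes and erythroblasts summed to 1048 to 1574 counts in the mutants and 1995 to 3422 in wild type, with 1 of 3 tested called lower, Cd24a (log2 −0.63, edgeR adjusted p = 0.0284). That call held in 6 of 16 other settings, and of the left-out libraries only in the absence of wild-type library 1 (adjusted p 0.000361 to 0.303 over all 16). The 10 lymphocyte markers summed to 221 to 359 and 450 to 714, with 2 of 7 tested called lower by edgeR, 2 called by limma-voom and 0 by DESeq2. The 14 hepatocyte markers summed to 1846 to 3994 and 81 to 176, with 12 of 14 called higher, and Alb, serum albumin, had 2426 mutant counts and 1 wild-type count. Of the 8 platelet markers (77 to 195 against 171 to 321 counts) edgeR, DESeq2 and limma-voom called 0, with 0 at an unadjusted p under 0.05. Of the 8 myeloid markers (717 to 1318 against 1142 to 1455) edgeR and limma-voom called 0, with 1 at an unadjusted p under 0.05, and DESeq2 called 1. The 9 exocrine pancreas markers had 314 counts in wild-type library 1 and at most 2 in any other. The part of these cells in the levels of Rec114 and AI662270 was not tested. In bulk RNA, fewer cells of a type and less RNA per cell cannot be told apart.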

How the data were processed

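The authors deposited 1 file of raw counts per gene for each of 6 libraries, with gene lengths and no normalization, per the file headers. CASAVA 1.8.2, Subread, featureCounts and the build mm10 are named per the submitters' processing notes. Their strand and multi-mapping settings and the annotation are not given in the sources used here. Libraries were made from polyadenylated RNA, per the labels' protocols. Symbols and positions came from RefSeq (GRCm38.p6), matched by Entrez number for 25275 of 27179 genes, exons from GENCODE M21. Of the members, 1 had a RefSeq start window.

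The comparison was edgeR 4.0.16 in R 4.3.3: quasi-likelihood F test (robust), TMM factors, filterByExpr, genotype as the only term, Benjamini-Hochberg adjustment over the 2823 genes tested, called under 0.05. The SE was taken as the fold change (log2) over the root of F. Log2 CPM used a prior count of 2. Levels were compared between genes as RPKM of total counts. The batch label pairs the libraries: same-batch deviations from the group means correlated at −0.116, −0.0855 and −0.0439, and batch was a term in an alternative. Others were RLE factors, total counts, globins left out, erythroid library sizes, 2 filters, DESeq2 1.42.0, limma-voom (limma 3.58.1), genes of 3 or fewer wild-type counts left out, and each library left out. The code was tested on simulated data. Each library came from 1 animal.

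Members and lists were chosen with earlier results of these data known. Named genes were, by rule, the members, Nxf1, the nearest and any called neighbours, Schlafen and meiotic genes with counts, 5 genes alike in pattern, the leading long non-coding RNAs, genes next in level, and the top markers. Named outside it, after their values were seen, are Prnp, Raly, Mir451a, Pml, Cyp1a2, the meiotic genes at 0 counts, Ankrd31, which is not in the count files, and the denominators Alas2 and Redrum.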

Additional observations from a re-analysis of the deposited data

How the results depend on the processing

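Both log2 fold changes stayed negative in all 16 other settings, and 14 of these moved each by less than the spread between libraries. With total counts they were −1.59 (Rec114) and −1.77 (AI662270), and with erythroid library sizes −1.50 and −1.69, each with the median of all genes; with 1 library left out they ran from −1.19 to −0.90 and from −1.47 to −1.12. With batch as a term (replicate block) they were −1.08 and −1.28. Of 2823 genes tested, 199 were called with TMM, 360 with total counts and 303 with erythroid library sizes. With batch as a term it was 254 of the same 2823. Other alternatives tested other numbers of genes. With no filter 464 of 16396 were called, and at a mean count of at least 50 it was 115 of 666. When genes with at most 3 wild-type counts were dropped, it was 100 of 2740. With 1 library left out the number ran from 152 of 3327 (without mutant library 2) to 278 of 3025 (without wild-type library 1).

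Of 27 other long non-coding RNAs tested, 3 were called with TMM and 9 with total counts. It was 7 with erythroid library sizes and 5 with batch as a term. All of these were lower, where 30, 245, 182 and 60 of all 2823 genes tested were called lower. With no filter 6 of 646 were called, 5 of them lower, where 82 of all 16396 genes were lower. At a mean count of at least 50 it was 1 of 7, also lower, where 49 of all 666 genes were. With 1 library left out 1 to 4 of 30 to 35 tested were called, all lower. Of all 3025 to 3369 genes tested, 8 to 77 were then called lower. With RLE factors 1 gene, Slfn2, was called among 9 neighbours of AI662270 and 5 Schlafen genes tested. It was higher in the mutants, where 175 of all 2823 genes tested were called higher. With 1 library left out 0 to 1 was called, again Slfn2 and higher. Within 1000 kb of Rec114, 1 of 9 genes tested was called, Cyp1a2, a liver enzyme. It was higher in the mutants (log2 6.98), where 5.99% of all genes tested were called higher. With no filter 1 of 17 genes tested for later steps of meiosis was called, Stag3, which was also higher (log2 1.95). Over all genes 382 of 16396 were then called higher. By count alone the mean wild-type place of Rec114 was 92.3, against 70 per length. Of the 5 genes most alike, 2 (Rec114) and 1 (AI662270) were shared with total counts. Except where the alternative tests other genes, the cause was not tested. Low counts limit what can be said of the meiotic genes, since 1 of the 40 passed the filter on low counts. Whether the others were absent or lay below the depth of these libraries was not tested.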
